A study of Mus musculus with 20 samples.

Results

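The collagen genes outside cartilage are described here in mouse ears from 2 skin models: the 38 genes whose symbol is Col, a number, the letter a and a number, without the 6 collagen genes of cartilage (Col2a1, Col9a1, Col9a2, Col9a3, Col10a1 and Col11a2). They are 38 of the 18835 genes that both deposited tables hold, and each of the 38 is in both tables. The study asked how SB415286, a small-molecule inhibitor of the kinase GSK3, changes gene expression in the ear. The 20 RNA-seq libraries form 4 groups of 5. In the AD model, ears came from mice given SB415286 at 0.7 mg/kg and from control mice; in the ACD model, from mice given SB415286 at 2 mg/kg and from control mice. All mice were C57BL/6, 6 to 7 weeks old when selected; SB415286 was injected into the abdominal cavity and ears were taken 4 hours later. The labels do not spell out AD or ACD or say how either model was made. Their treatment text names AD beside both doses, while the design text gives the higher dose to ACD. They call the control groups untreated in one field and vehicle in the series' design. Nothing says whether each library is 1 mouse, so the tests rest on variation between libraries, which may not be variation between mice. Dose differs between the models, so model and dose cannot be told apart.

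Collagens are secreted or membrane-bound proteins whose chains wind round each other into a helix. The helix needs glycine at the start of every triplet of residues (the Gly-X-Y repeat), since only glycine fits its core. Fibril-forming collagens such as types I, III and V make up the bulk of the dermis and are made mainly by fibroblasts. Network-forming type IV collagen makes basement membranes, type VI makes beaded filaments, and type VII makes the anchoring fibrils that tie the epidermal basement membrane to the dermis. Type XVII collagen is a membrane protein of hemidesmosomes in basal keratinocytes.

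The glycine spacing is shown because it defines the family and because its unbroken runs differ in length among the chains described here. Each line holds 108 bases of coding sequence, 5′ to 3′, from the GENCODE transcript of the mouse reference (GRCm38), with every glycine codon in capitals. The first line opens the longest unbroken Gly-X-Y run of its chain; the others begin with the last 6 triplets of their longest run and go on past its end.
Col1a1 (residues 168 to 203): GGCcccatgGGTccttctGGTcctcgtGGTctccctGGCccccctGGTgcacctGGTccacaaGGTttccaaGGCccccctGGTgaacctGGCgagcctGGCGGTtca
Col4a1 (residues 145 to 180): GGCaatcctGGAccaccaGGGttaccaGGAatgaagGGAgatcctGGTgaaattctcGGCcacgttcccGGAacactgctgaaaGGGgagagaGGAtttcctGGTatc
Col6a1 (residues 499 to 534): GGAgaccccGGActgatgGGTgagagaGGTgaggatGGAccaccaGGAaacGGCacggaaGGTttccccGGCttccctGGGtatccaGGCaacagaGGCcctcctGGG
Col7a1 (residues 2725 to 2760): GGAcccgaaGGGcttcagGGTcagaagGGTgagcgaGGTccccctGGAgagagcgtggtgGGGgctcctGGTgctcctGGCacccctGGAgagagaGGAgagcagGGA
Col8a1 (residues 517 to 552): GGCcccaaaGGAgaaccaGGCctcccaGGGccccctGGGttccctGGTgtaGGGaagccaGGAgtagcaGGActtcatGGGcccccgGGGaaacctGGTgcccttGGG
Col1a1 opens every triplet of codons with glycine through its line, which lies inside its run. In the other lines, placed across the end of a run, the spacing breaks and then resumes, so the choice of stretch sets this contrast.

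Computed from the reference coding sequences, with a run counted from 5 triplets, the 1453-residue Col1a1 chain holds 73.3% of its residues in 2 Gly-X-Y runs, the longest of 338 triplets. Col3a1, a fibril chain of similar length (1464 residues), has a longest run of 344 triplets. Col4a1, of basement membranes, holds 78.4% of its residues in such runs but splits them into 22, the longest of 40 triplets. The long Col7a1 chain (2944 residues) has 48.0% of its residues in 20 runs, and Col8a1, a short network-forming chain of vessel and corneal membranes, has 58.9% in 9 runs. The share was 8.1% in Col12a1, 28.6% in Col18a1, 31.9% in Col6a1 and 34.1% in Col17a1. Fibril-associated chains differed among themselves, with 62.1% in Col16a1 and 63.2% in Col22a1.

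Library totals ranged from 18165446 to 20862353 expected counts. In the AD model, SB415286 library 7 correlated no better with the other SB415286 libraries (median r = 0.956 across genes) than with control libraries (0.957), and control library 6 correlated less with the other controls (0.966) than with SB415286 libraries (0.981). Both stand apart from their groups, and the AD values of the genes described in detail are given with and without them. They were chosen because they lie toward the opposite group, so leaving them out draws the groups apart by construction. No pair of libraries in a group was alike enough to be 1 library deposited in duplicate. Defining markers of basal keratinocytes were abundant in every library, with summed levels from 6941 to 14812 CPM (counts scaled to library total).

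Levels of the collagen genes are first given as FPKM (fragments scaled by gene length and by library total), which allows genes to be set side by side. The FPKM values were scaled within each model's table, so levels set across models carry that difference. Col3a1, of fibrillar type III collagen, had the highest mean level in all 4 groups. It averaged 149.7 ± 131 FPKM in AD SB415286 ears and 279 ± 184 FPKM in AD control ears, and 486 ± 78.0 FPKM in ACD SB415286 ears and 567 ± 87.8 FPKM in ACD control ears (SD, n = 5 each). In AD control ears Col1a1 (207 ± 139 FPKM), Col1a2 (197 ± 93.4) and Col17a1 (147 ± 36.5) came next, and their ranges over libraries overlapped. In ACD control ears the next were Col1a2 (251 ± 51.7 FPKM), Col1a1 (238 ± 68.0), Col6a2 (111 ± 27.0) and Col6a1 (105 ± 23.0). The ranges of Col1a2 and Col1a1 overlapped, as did those of Col6a2 and Col6a1, whereas Col3a1 lay above Col1a2, and Col1a1 above Col6a2, in range. Of the 38 genes, 6 averaged at least 100 FPKM in AD control ears and 5 in ACD control ears, while 12 and 13 averaged under 1 FPKM. Col19a1 had the lowest mean FPKM in 3 of the 4 groups (Col6a5 in ACD control ears), with 1 to 9.98 expected counts in a library; it was too low to be tested in any comparison.

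**Figure D1:**
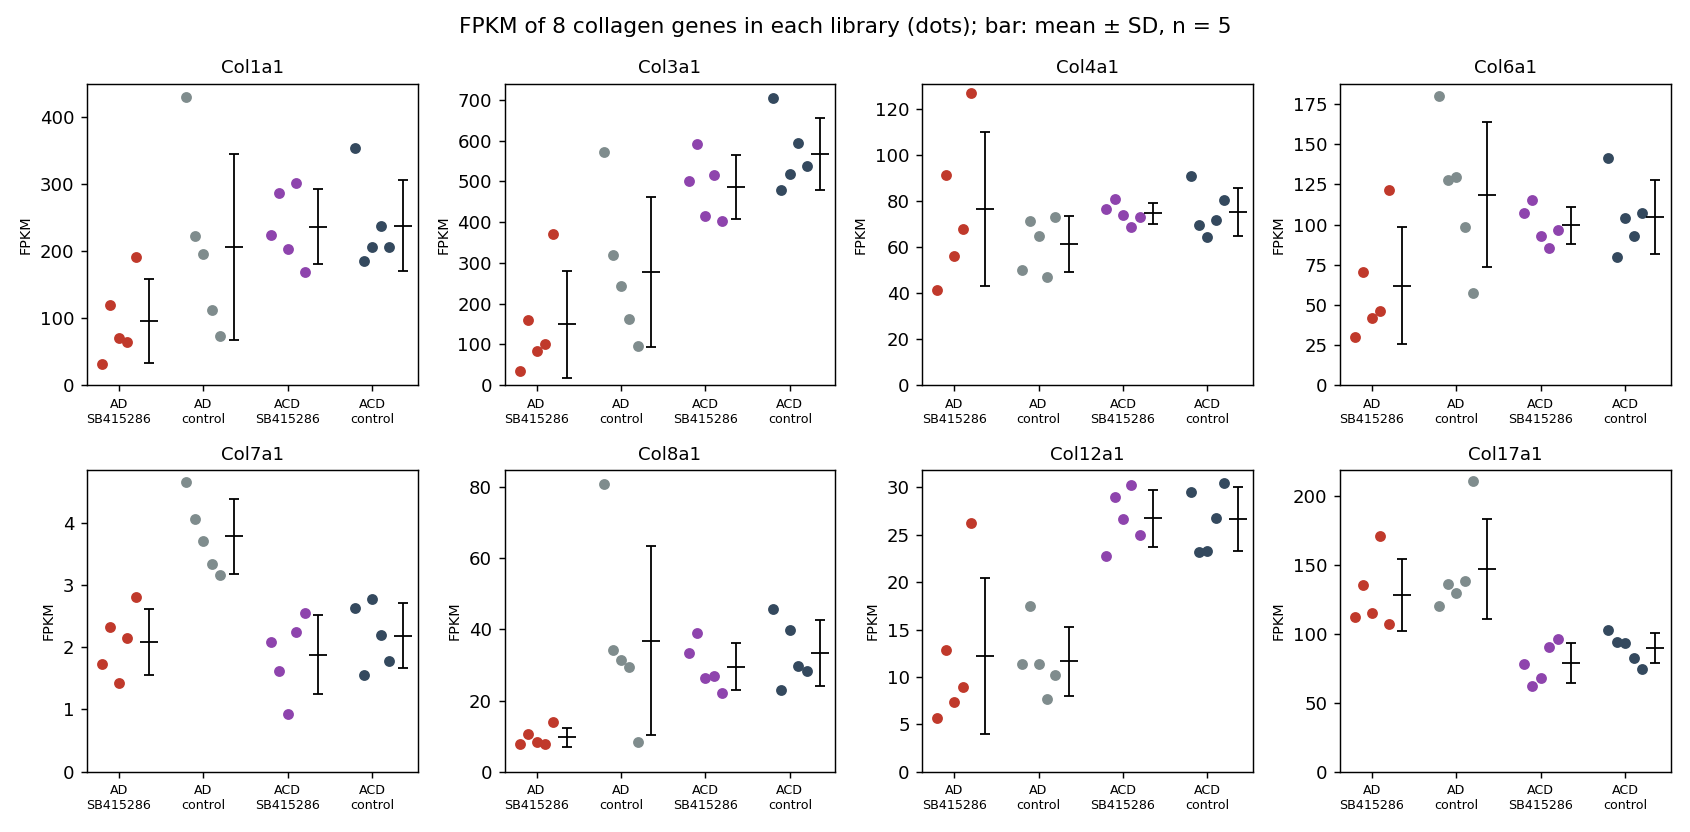
FPKM of 8 collagen genes (y axis, from 0) in each of the 20 libraries (dots), in the 4 groups (x axis), with the mean and SD of each group of 5. Col7a1 ranges from 1.43 to 2.8 FPKM in AD SB415286 ears and from 3.16 to 4.65 in AD control ears, and Col1a1 and Col3a1 spread widely in both AD groups.

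The 38 genes together took 0.256 to 0.893% of all expected counts in AD SB415286 libraries and 0.485 to 1.23% in AD control libraries, so the groups overlapped. SB415286 library 7 had the highest share of its group and control library 6 the lowest of its own. In the ACD model the share was 0.781 to 1.04% with SB415286 and 0.815 to 1.27% in controls, again with overlap. Col1a1, Col1a2 and Col3a1 made up 26.7 to 46.0% of the collagen counts in AD SB415286 ears and 30.3 to 60.8% in AD control ears. In the ACD model these genes made up 53.2 to 61.0% with SB415286 and 57.6 to 61.6% in controls.

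**Figure D2:**
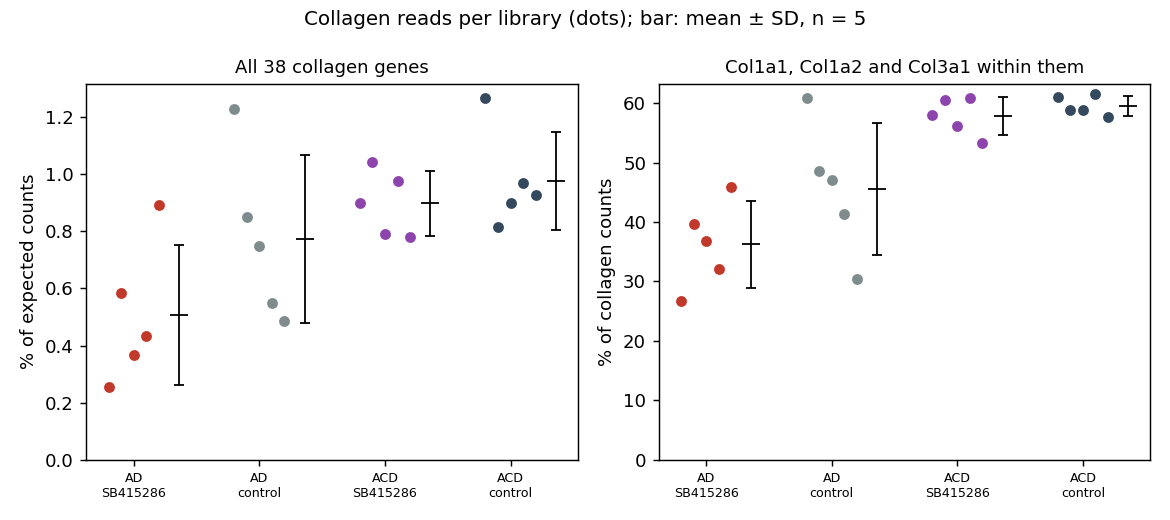
Left, the share of all expected counts in the 38 collagen genes (y axis, %) in each library; right, the share of those collagen counts in Col1a1, Col1a2 and Col3a1; dots are libraries, bars the mean and SD of 5. Both AD groups spread more than both ACD groups, and SB415286 and control libraries overlap in both panels.

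In the AD model, Col7a1 was the collagen gene that passed the test, and it was lower with SB415286. Of the 36 collagen genes tested, 0 were higher and 1 was lower at an adjusted p under 0.05 (the quasi-likelihood test of edgeR, with p-values adjusted by Benjamini-Hochberg over all 15149 genes tested), against 1.23% of all genes in either direction and 0.647% lower. Below 0 lay 28 of the 36 log2 fold changes, against 49.9% of all genes, with a median of -0.29 against 0.00 for all genes. At an unadjusted p under 0.05 were 11 of 36 (30.6%), against 20.1% of all genes. Col6a5 and Col19a1 were too low to be tested. In whole ears, fewer cells of a type and less RNA per cell cannot be told apart.

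Col7a1, the chain of the anchoring fibril (gene at chr9:108953586-108984875, plus strand), had 1.73, 2.32, 1.43, 2.14 and 2.8 FPKM in AD SB415286 ears, against 4.65, 4.05, 3.7, 3.33 and 3.16 FPKM in AD control ears. Library values are given here and below in the order of the labels' library numbers, which are 2, 3, 4, 6 and 7 for AD SB415286 and 1, 2, 4, 5 and 6 for AD control. Every SB415286 library lay below every control library. The log2 fold change was -0.79 ± 0.16 (SE), edgeR adjusted p = 0.0493. This call was close to the threshold: it was lost in 8 of the 10 fits that left out 1 library (adjusted p from 0.0223 to 0.133 over the 10). It held without SB415286 library 7 or without control library 6, the libraries that lie toward the opposite group. In the 8 fits that lost it, at most 0.137% of all genes passed. Over the 10 fits the Col7a1 log2 fold change ran from -0.89 to -0.69. With no filter on low counts the adjusted p was 0.0584 and 0 collagen genes passed by edgeR (0.25% of all genes).

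The genes next in order of p did not pass. Col8a2, a short-chain collagen that forms hexagonal networks, had 2.98, 5.26, 3.81, 3.41 and 3.89 FPKM in AD SB415286 ears, against 8.98, 7.73, 6.3, 7.4 and 5.08 FPKM in AD control ears. Only control library 6 reached into the SB415286 range. Its log2 fold change was -0.80 ± 0.18 (SE), edgeR adjusted p = 0.054. Its partner Col8a1 had 7.67, 10.7, 8.27, 7.68 and 14 FPKM in AD SB415286 ears, against 81, 34.2, 31.3, 29.4 and 8.46 FPKM in AD control ears. Control library 1 stood far above the rest and control library 6 lay within the SB415286 range. The Col8a1 log2 fold change was -1.87 ± 0.46 (SE), edgeR adjusted p = 0.0681. Col6a6, a minor chain of type VI collagen, was listed at 0.04, 0.05, 0.08, 0.04 and 0.03 FPKM in AD SB415286 ears, against 0.66, 0.17, 0.15, 0.12 and 0.08 FPKM in AD control ears. These are levels near the floor of detection, led by control library 1. The groups did not overlap in CPM, one of 2 collagen genes with Col7a1 of which that held (lower; 2.37% of all genes), while none was higher without overlap (2.28%), and the log2 fold change was -2.28 ± 0.62 (SE), edgeR adjusted p = 0.0891. Without control library 1 it was -1.42.

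The 9 fibril-forming genes all had log2 fold changes below 0, with a median of -0.85, and 0 of 9 passed (2 had an unadjusted p under 0.05; by DESeq2, Col11a1 passed). Col1a1, the main chain of type I collagen in dermis, had 31.9, 120.1, 70.3, 64.1 and 192 FPKM in AD SB415286 ears, against 430.4, 222, 196, 112 and 73.4 FPKM in AD control ears. The groups overlapped: library 7, the highest of the SB415286 ears, lay above 2 of the 5 controls, and library 6 was the lowest of the controls. Its log2 fold change was -1.05 ± 0.52 (SE), edgeR adjusted p = 0.288. Col3a1 had 33.6, 159, 84.4, 101 and 371 FPKM in AD SB415286 ears, against 572, 319.7, 242, 162 and 96.8 FPKM in AD control ears. SB415286 library 7 lay above 4 of the 5 controls, and the groups overlapped. The Col3a1 log2 fold change was -0.85 ± 0.60 (SE), edgeR adjusted p = 0.452. The others ran from -1.25 ± 0.61 for Col27a1, a fibril chain known from cartilage and other tissues, to -0.04 ± 0.39 for Col5a3, a minor chain of type V collagen.

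Among the other classes, Col6a1 of the beaded filament had 30.2, 70.5, 41.8, 46.1 and 121 FPKM in AD SB415286 ears, against 180.1, 128, 129, 98.8 and 57.5 FPKM in AD control ears. The groups overlapped: SB415286 libraries 3 and 7 lay above control library 6. Its log2 fold change was -0.88 ± 0.37 (SE), edgeR adjusted p = 0.223. All 5 type VI genes tested were below 0 (median -1.01), none past the threshold, 2 at an unadjusted p under 0.05 and 1, Col6a6, by DESeq2 (which also called the untested Col6a5). Of the 6 type IV genes of basement membranes, 2 were above 0 and 4 below: Col4a1 was 0.39 ± 0.26 and Col4a2 0.35 ± 0.23, with a median of -0.15, and none had an unadjusted p under 0.05 or passed by DESeq2.

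Col4a1 had 41.1, 91.4, 56.2, 67.8 and 127 FPKM in AD SB415286 ears, against 50.2, 71.2, 65, 47 and 73 FPKM in AD control ears, and its adjusted p was 0.428. Col17a1, the hemidesmosome collagen of basal keratinocytes, had 112, 135, 115, 171 and 107 FPKM in AD SB415286 ears, against 119.9, 136, 129.6, 138 and 211 FPKM in AD control ears. Control library 6 was the highest of all 10. The Col17a1 log2 fold change was -0.12 ± 0.20 (SE), edgeR adjusted p = 0.768. Col12a1, a chain that binds to type I fibrils, was 0.14 ± 0.36 (SE), edgeR adjusted p = 0.852, and Col18a1, the source of endostatin in vessel basement membranes, was 0.04 ± 0.23 (SE), edgeR adjusted p = 0.931. Col23a1, a transmembrane collagen, and Col28a1, a collagen of peripheral nerve, had the smallest p among the values above 0, at 0.63 ± 0.26 and 0.32 ± 0.13, with adjusted p of 0.218 and 0.203 (edgeR).

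**Figure D3:**
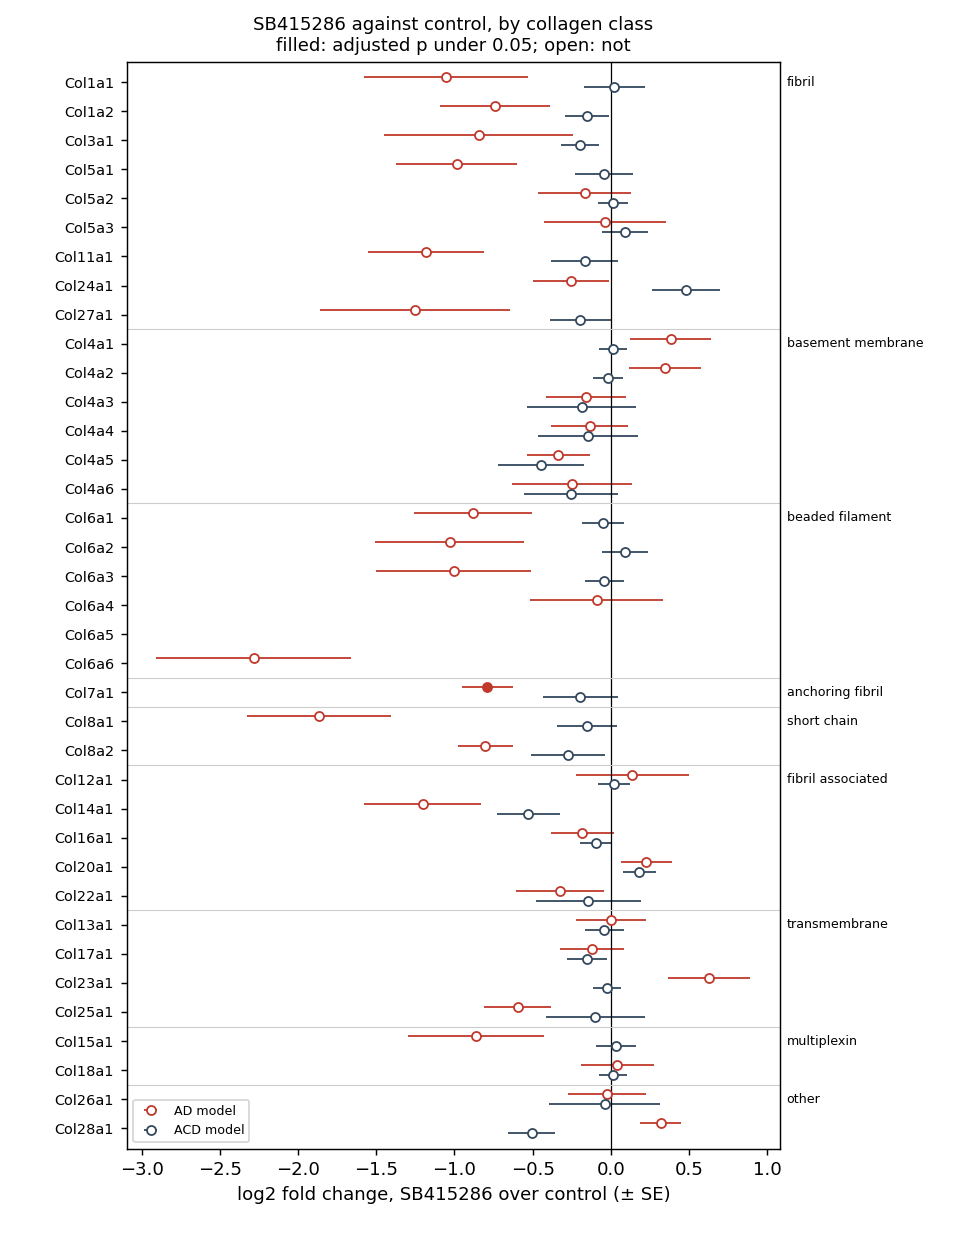
Log2 fold change of SB415286 over control (x axis, ± SE) for each collagen gene tested (y axis, grouped by class) in the AD model and the ACD model, each n = 5 against 5. Col7a1 in the AD model is the filled point; the 9 fibril-forming genes lie below 0 in the AD model, from -1.25 to -0.04, and close to 0 in the ACD model, from -0.20 to 0.48.

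Leaving out SB415286 library 7, control library 6 or both draws the AD groups apart by construction. Adjusted p values from such fits therefore do not hold their stated error rate. Without SB415286 library 7 and control library 6 together, 18 of 37 collagen genes passed in the AD model, 17 lower and 1 higher, against 13.8% of all genes lower and 11.8% higher. Among them Col7a1 was -0.95 ± 0.16 (SE), edgeR adjusted p = 0.00509. Also past the threshold were Col1a1 at -1.65 ± 0.46 (SE), edgeR adjusted p = 0.0305, Col3a1 at -1.68 ± 0.49 (SE), edgeR adjusted p = 0.0353 and Col6a1 at -1.41 ± 0.26 (SE), edgeR adjusted p = 0.00721. Leaving out control library 1 instead gave -0.59 for Col1a1 and -0.40 for Col3a1, with neither past the threshold. Without SB415286 library 7 and control library 6, Col11a1 had the smallest p, at -1.70 ± 0.22 (SE), edgeR adjusted p = 0.00265. Col11a1, a regulator of fibril width, is a type XI chain, as is Col11a2 of the cartilage genes left out. The gene that was higher was Col20a1, a fibril-associated chain, at 0.44 ± 0.11 (SE), edgeR adjusted p = 0.0187. Col27a1 was -2.33 ± 0.32 (SE), edgeR adjusted p = 0.00325, Col8a1 was -2.27 ± 0.33 (SE), edgeR adjusted p = 0.00361 and Col8a2 was -0.88 ± 0.17 (SE), edgeR adjusted p = 0.00892. Col6a6 was -2.31 ± 0.62 (SE), edgeR adjusted p = 0.0266. Among genes that did not pass, 3 class genes had the opposite sign without these libraries: Col12a1 at -0.34 ± 0.27, Col18a1 at -0.20 ± 0.22 and Col17a1 at 0.12 ± 0.16. Col4a1 was 0.24 ± 0.23, Col23a1 0.61 ± 0.25 and Col28a1 0.32 ± 0.14, none past the threshold. With library 7 alone left out 9 genes passed (7.37% of all genes), and with control 6 alone left out 8 did (9.3%). Leaving out any of the other 8 libraries left 0, by the same edgeR test, with at most 0.137% of all genes past the threshold. DESeq2 on all 10 libraries called 7 collagen genes, all lower (Col7a1, Col8a1, Col8a2, Col6a5, Col6a6, Col14a1 and Col11a1), against 6.42% of all genes. That share is over the 19234 genes of the AD table, without the low-count filter used for edgeR. On FPKM values, limma called 2, Col7a1 and Col8a2, with a pseudocount of 1 (1.76% of all genes) and with 0.1 (1.78%).

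Genes that act on collagens were tested in the same fit. Of 15 tested fibril-binding proteoglycans and glycoproteins 1 was lower, Omd (osteomodulin) at -0.78 ± 0.16 (SE), edgeR adjusted p = 0.0479, and Tnxb, which spaces dermal fibrils, was -0.62 ± 0.16 (SE), edgeR adjusted p = 0.0717. At an unadjusted p under 0.05 were 7 of the 15 (46.7%), and DESeq2 called 4 of that list. Over all genes 1.23% passed by edgeR, 20.1% had an unadjusted p under 0.05 and 6.42% passed by DESeq2. No gene passed by edgeR among 22 of chain synthesis and folding (5 or 22.7% at an unadjusted p under 0.05, 0 by DESeq2) or 13 of propeptide cleavage and crosslinking (5 or 38.5%, and 3 by DESeq2). The same held for 15 of breakdown and uptake (6 or 40%, and 3) and 8 collagen receptors (2 or 25%, and 2). The smallest p values in these lists were those of Tmem38b (0.37 ± 0.12) and P3h2 (-0.38 ± 0.13), Adamts14 (-0.38 ± 0.11) and Lox (0.71 ± 0.21), Timp3 (-0.52 ± 0.12) and Mmp13 (1.52 ± 0.47), and Ddr1 (-0.36 ± 0.08) and Itga1 (0.50 ± 0.13). P3h2 hydroxylates prolines, Lox crosslinks collagen, Mmp13 is a collagenase, and Ddr1 and Itga1 bind collagen at the cell surface.

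Markers of the other tissues of an ear were read in the same libraries. Of 11 chondrocyte markers tested 1 passed by edgeR, Sox9, the transcription factor of cartilage, lower at -1.03 ± 0.21 (SE), edgeR adjusted p = 0.0488. An unadjusted p under 0.05 was seen in 10 of the 11 (90.9%, against 20.1% of all genes). DESeq2 called 9 of the 13 listed, all lower, against 6.42% of all genes. The list's median was -1.47 and its summed level 391.8 to 507 CPM in AD SB415286 ears and 430 to 763 CPM in AD control ears. The 6 cartilage collagens, which are part of that list, had a median of -1.93. None of them was past the edgeR threshold, all 6 were at an unadjusted p under 0.05 and all 6 passed by DESeq2. Of 6 skeletal muscle markers none passed (1 at an unadjusted p under 0.05, 0 by DESeq2), with summed levels of 46.3 to 1149 CPM against 748 to 1495 CPM in controls. Of 7 fibroblast markers none passed (1 at an unadjusted p under 0.05, 0 by DESeq2), at 656 to 1222 CPM against 710 to 1448 CPM in controls. Of 5 mural markers none passed (3, and 3 by DESeq2), at 242 to 397 CPM against 415 to 561 CPM in controls. None passed by edgeR among 6 endothelial markers (2 at an unadjusted p under 0.05, 1 by DESeq2), 5 of basal keratinocytes (1, and 1), 5 of adipocytes (1, and 1) and 5 of leukocytes (1, and 0). The part of these tissues in the collagen values was not tested.

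In the ACD model no collagen gene passed the test. Of the 34 tested, 0 passed by edgeR and 0 by DESeq2, against 0.0264% of all genes by edgeR and 2.02% by DESeq2. An unadjusted p under 0.05 was seen in 3 of 34 (8.82%), against 13.8% of all genes. In none did the groups separate in CPM, against 1.59% of all genes lower and 1.72% higher. The median log2 fold change was -0.07, with 24 of 34 below 0, against 51.5% of all genes. Col19a1, Col6a4, Col6a5 and Col6a6 were too low to be tested. The smallest p was that of Col28a1, with 1.79, 1.46, 0.94, 1.11 and 1.54 FPKM in ACD SB415286 ears, against 2.6, 1.87, 1.78, 1.97 and 1.99 FPKM in ACD control ears. Library numbers are 3, 4, 5, 7 and 8 for ACD SB415286 and 1, 3, 4, 5 and 6 for ACD control. SB415286 library 3 reached just into the control range and the other 4 lay below it. Its log2 fold change was -0.51 ± 0.15 (SE), edgeR adjusted p = 0.205.

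Col14a1, a fibril-associated chain, had 3.14, 3.23, 1.91, 2.11 and 1.51 FPKM in ACD SB415286 ears, against 4.45, 2.82, 3.18, 4.01 and 2.99 FPKM in ACD control ears. The groups overlapped, and the log2 fold change was -0.53 ± 0.20 (SE), edgeR adjusted p = 0.294. Col24a1, a minor fibril chain, was 0.48 ± 0.22 (SE), edgeR adjusted p = 0.358, and Col20a1 was 0.18 ± 0.11 (SE), edgeR adjusted p = 0.473. The class genes lay near 0. Col1a1 was 0.02 ± 0.19, Col3a1 -0.20 ± 0.12, Col4a1 0.02 ± 0.09, Col6a1 -0.05 ± 0.13, Col7a1 -0.19 ± 0.24, Col12a1 0.02 ± 0.10, Col17a1 -0.15 ± 0.13 and Col18a1 0.02 ± 0.09 (log2 fold change ± SE), with adjusted p from 0.513 to 0.971 (edgeR). For Col7a1 the groups overlapped widely, with 2.08, 1.61, 0.92, 2.24 and 2.54 FPKM in ACD SB415286 ears, against 2.63, 1.56, 2.77, 2.19 and 1.78 FPKM in ACD control ears. Of the 5 lists of genes that act on collagens and the 8 marker lists described here no gene passed by edgeR; DESeq2 called Tmem38b, an ion channel needed for collagen synthesis, and S100a8, a neutrophil protein. Across those lists the number at an unadjusted p under 0.05 was at most 3, for breakdown and uptake.

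The difference between the models in the SB415286 effect was tested directly, as the effect in ACD minus that in AD. Of 37 collagen genes 0 passed by edgeR (8 at an unadjusted p under 0.05, and 1 by DESeq2), against 0.051% of all genes by edgeR and 0.865% by DESeq2. Below 0 lay 15 of the 37 differences, against 48.7% of all genes, and 12.6% of all genes had an unadjusted p under 0.05. The smallest p was that of Col28a1, the peripheral nerve collagen, at -0.82 ± 0.20 (SE), edgeR adjusted p = 0.122, which DESeq2 called (-0.83, adjusted p = 0.0141). Its own values were -0.51 ± 0.15 in ACD and 0.32 ± 0.13 in AD. Col8a1 was 1.72 ± 0.52 (SE), edgeR adjusted p = 0.2, Col6a5 was 3.25 ± 1.17 (SE), edgeR adjusted p = 0.27 and Col11a1 was 1.02 ± 0.45 (SE), edgeR adjusted p = 0.358.

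The 9 fibril-forming genes were all above 0 in this difference (median 0.74), with 1.08 ± 0.59 for Col1a1 and 0.66 ± 0.64 for Col3a1. Col6a1 was 0.85 ± 0.41 and Col7a1 0.60 ± 0.31, while Col4a1 was -0.36 ± 0.28, Col12a1 -0.11 ± 0.39, Col17a1 -0.03 ± 0.25 and Col18a1 -0.02 ± 0.26, none past the threshold (edgeR adjusted p from 0.407 to 0.987). Without AD SB415286 library 7 and AD control library 6, 11 collagen genes passed, 10 higher and 1 lower (Col28a1), against 13.4% of all genes. That choice draws the AD groups apart by construction, so adjusted p values from this fit do not hold their stated error rate. With AD library 7 alone left out 1 passed, Col6a2 (1.97% of all genes), and with AD control 6 alone left out 2 did, Col8a1 and Col28a1 (1.48%). Of the other lists, only Sox9 among the chondrocyte markers passed by edgeR, at 1.29 ± 0.23 (SE), edgeR adjusted p = 0.0495; DESeq2 called Sox9 and Cspg4, a mural marker.

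The control ears of the models differed in most genes, and in a smaller share of the collagen genes. In ACD control ears against AD control ears, 15 of 37 collagen genes (40.5%) passed, 4 higher and 11 lower, against 61.6% of all genes, 29.5% higher and 32% lower. At an unadjusted p under 0.05 were 16 of 37 (65.6% of all genes), and 19 of 37 lay below 0 (52.5%); DESeq2 also called 15 (53.6%). Higher in ACD were Col12a1, Col5a2, Col13a1 and Col3a1. Lower were the type IV genes Col4a4, Col4a5 and Col4a6, the type VI genes Col6a4, Col6a5 and Col6a6, and Col8a2 and Col20a1. So were Col7a1 of the anchoring fibril and the transmembrane genes Col17a1 and Col25a1. In CPM the groups did not overlap for 3 genes higher in ACD and 7 lower, against 23.2% and 24.2% of all genes. The models' libraries are in separate tables that differ in counting: 34% of the expected counts in the AD table and 58.9% in the ACD table are not whole numbers, and 4 of the 38 collagen genes in the ACD table, against 26 of 38 in the AD table, have only whole counts. Model, table and any run cannot be told apart.

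Col12a1, which binds to fibrils and is known from tissue under tension, had 29.5, 23.2, 23.3, 26.7 and 30.5 FPKM in ACD control ears, against 11.4, 17.5, 11.4, 7.66 and 10.2 FPKM in AD control ears. Every ACD control lay above every AD control, and the log2 fold change was 1.21 ± 0.28 (SE), edgeR adjusted p = 0.00116. Col20a1 had 0.86, 0.7, 0.65, 0.79 and 0.66 FPKM in ACD control ears, against 1.3, 1.29, 1.15, 1.14 and 1.71 FPKM in AD control ears. Every ACD control lay below every AD control, and the log2 fold change was -0.77 ± 0.14 (SE), edgeR adjusted p = 0.000113. Col8a2 had 4.26, 2.24, 4.73, 2.82 and 2.53 FPKM in ACD control ears, against 8.98, 7.73, 6.3, 7.4 and 5.08 FPKM in AD control ears. These groups did not overlap either, and the log2 fold change was -1.02 ± 0.22 (SE), edgeR adjusted p = 0.000643.

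Of the minor chains of type IV collagen, known from basement membranes of kidney glomeruli and other epithelia, Col4a4, Col4a5 and Col4a6 were lower in ACD controls, at low levels, and Col4a3 did not pass (-0.32 ± 0.30 (SE), edgeR adjusted p = 0.358). Col4a5 had 0.51, 0.19, 0.39, 0.42 and 0.27 FPKM in ACD control ears, against 0.64, 1.04, 0.66, 0.86 and 1.04 FPKM in AD control ears. The groups did not overlap, and the log2 fold change was -1.18 ± 0.24 (SE), edgeR adjusted p = 0.000442. Col4a6 had 0.25, 0.11, 0.27, 0.17 and 0.11 FPKM in ACD control ears, against 0.38, 0.89, 0.31, 0.39 and 1.1 FPKM in AD control ears, without overlap, and was -1.71 ± 0.37 (SE), edgeR adjusted p = 0.000576. Col4a4 had 0.13, 0.07, 0.08, 0.09 and 0.05 FPKM in ACD control ears, against 0.2, 0.23, 0.12, 0.25 and 0.3 FPKM in AD control ears. One ACD library overlapped the AD range, and the log2 fold change was -1.37 ± 0.29 (SE), edgeR adjusted p = 0.00045. Col4a1, an abundant type IV chain, had 90.9, 69.6, 64.2, 71.7 and 80.2 FPKM in ACD control ears, against 50.2, 71.2, 65, 47 and 73 FPKM in AD control ears. The groups overlapped, and it was 0.37 ± 0.20 (SE), edgeR adjusted p = 0.118.

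The type VI chains encoded beside each other on chromosome 9 were near the floor of detection. Col6a5 was listed at 0.06, 0.02, 0.03, 0.02 and 0.01 FPKM in ACD control ears, against 0.74, 0.13, 0.07, 0.12 and 0.02 FPKM in AD control ears. AD control library 1 stood far above the rest, the other libraries overlapped, and the log2 fold change was -2.86 ± 0.73 (SE), edgeR adjusted p = 0.00239. Col6a6 was listed at 0.06, 0, 0.08, 0.01 and 0.04 FPKM in ACD control ears, against 0.66, 0.17, 0.15, 0.12 and 0.08 FPKM in AD control ears. Its groups did not overlap in CPM, and the log2 fold change was -2.55 ± 0.66 (SE), edgeR adjusted p = 0.00274. Without AD control library 1 the log2 fold changes were -1.49 for Col6a5 (edgeR adjusted p = 0.0174) and -1.68 for Col6a6 (0.0163), both still past the threshold. The main chain Col6a1 was -0.11 ± 0.29 (SE), edgeR adjusted p = 0.762.

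Of the fibril and epithelial collagens, Col17a1 was -0.66 ± 0.18 (SE), edgeR adjusted p = 0.00364 with no overlap in CPM, and Col7a1 was -0.72 ± 0.22 (SE), edgeR adjusted p = 0.00828. The Col3a1 value was 1.10 ± 0.46 (SE), edgeR adjusted p = 0.0449, with overlapping groups, and it passed in 1 of the 10 fits that left out 1 control library (the one without AD control 1, adjusted p = 0.00713), with adjusted p up to 0.105 in the others. Col13a1 lost its call without AD control 5 or 6 (adjusted p = 0.0525 each), and Col25a1 without ACD control 3 (0.0512). Col1a1, at 0.28 ± 0.41 (SE), edgeR adjusted p = 0.574, and Col18a1, at 0.06 ± 0.18 (SE), edgeR adjusted p = 0.79, did not pass.

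**Figure D4:**
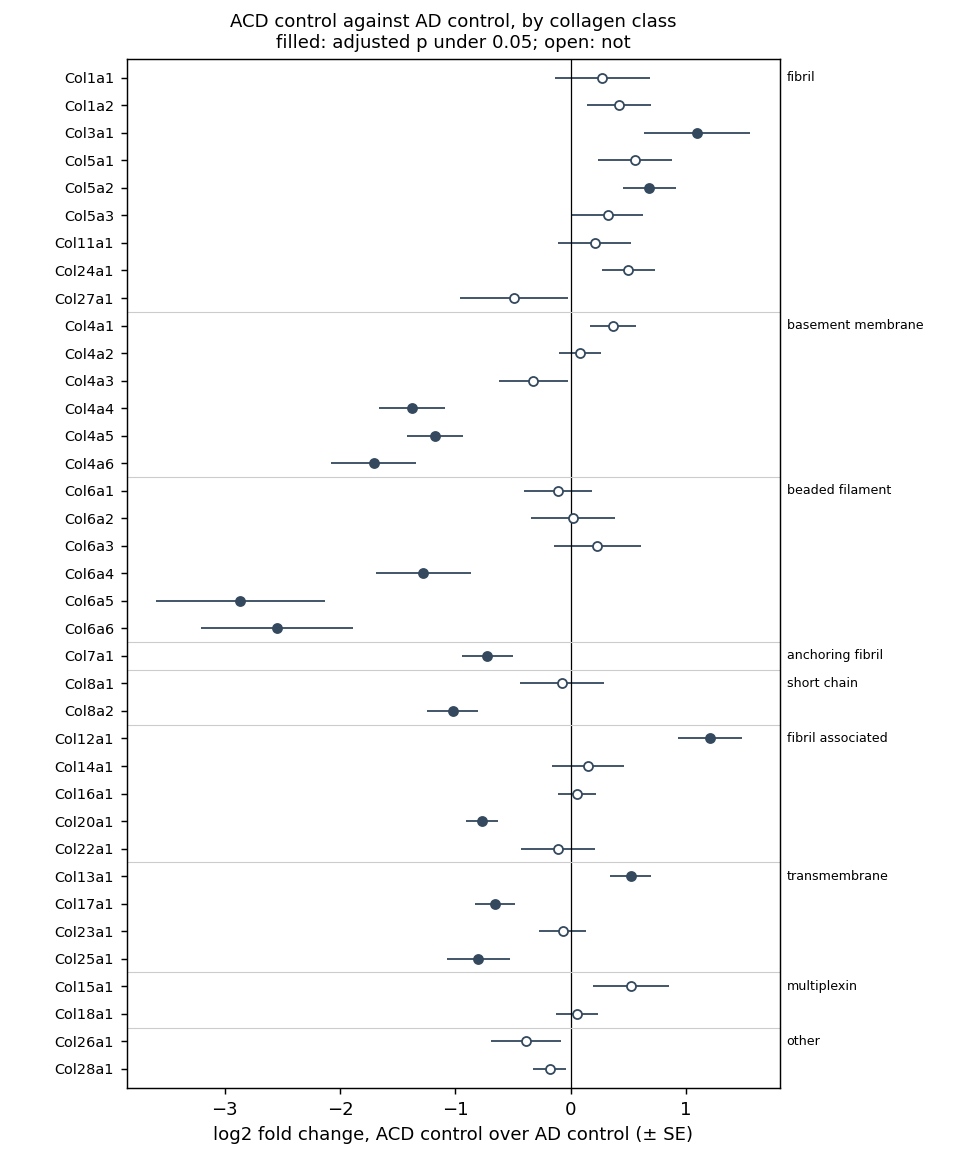
Log2 fold change of ACD control over AD control (x axis, ± SE) for the 37 collagen genes tested (y axis, grouped by class), n = 5 against 5. Filled points passed: Col12a1 at 1.21 is the highest of them, and Col6a5 at -2.86 the lowest.

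Genes that act on collagens differed between the control ears about as often as all genes. In the 5 lists 50 to 66.7% of genes passed by edgeR, against 61.6% of all genes, 29.5% higher and 32% lower. Of 22 genes of chain synthesis and folding 12 were higher in ACD and 2 lower. They included Plod2 (1.51 ± 0.17, adjusted p = 8.21e-07) and Plod3 (0.94 ± 0.12, 5.85e-06), which hydroxylate lysines, and Ppib (0.75 ± 0.09, 1.56e-06) and Fkbp10 (0.97 ± 0.14, 8.88e-06), which help the helix fold (edgeR). Of 13 genes of propeptide cleavage and crosslinking 4 were higher and 3 lower, among them Loxl2 at 0.89 ± 0.20 and Adamts14 at -1.85 ± 0.18. Of 15 genes of breakdown and uptake 6 were higher and 4 lower, among them the protease Mmp3 at 3.91 ± 0.43 and its inhibitors Timp1 at 3.74 ± 0.48 and Timp3 at -1.11 ± 0.16. Of 16 fibril-binding genes 3 were higher and 6 lower, among them Prelp at -1.48 ± 0.17 and Fmod at -1.14 ± 0.19, and of 8 receptors 2 were higher (Itga1, 0.83 ± 0.12, and Itgb1) and 2 lower (Ddr1 and Itga10). In the marker lists described here the share that passed ran from 16.7% for skeletal muscle to 85.7% for fibroblasts, on either side of the 61.6% of all genes. Of 5 leukocyte markers 4 were higher in ACD (summed level 2219 to 3455 CPM against 700 to 1265 CPM in AD), and 3 of 7 fibroblast markers were higher and 3 lower (1313 to 1539 CPM against 710 to 1448 CPM). Further lists had 5 of 12 chondrocyte, 1 of 6 skeletal muscle, 2 of 5 mural, 2 of 5 basal keratinocyte and 1 of 5 adipocyte markers lower and none higher, and of 6 endothelial markers 1 was higher and 3 lower. Their part in the collagen differences was not tested.

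Chains that share a trimer or a fibril were compared as ratios of FPKM within a library, which do not depend on its scaling. These ratios are a description with no test, and how often the ratios of other gene pairs separate groups was not examined. Type IV collagen of vessel walls joins Col4a1 and Col4a2 chains. Their ratio was 1.48, 1.58, 1.51, 1.62 and 1.56 in ACD control ears, against 1.23, 1.29, 1.28, 1.3 and 1.26 in AD control ears. The ranges did not overlap, and the ACD SB415286 ears (1.5 to 1.64) and AD SB415286 ears (1.18 to 1.39) lay near the controls of their own model. Col1a1 over Col3a1 was 0.503, 0.386, 0.399, 0.399 and 0.382 in ACD control ears, against 0.752, 0.696, 0.807, 0.688 and 0.758 in AD control ears. Every ACD control lay below every AD control.

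Within the AD model, Col5a1 over Col5a2, whose chains make type V collagen that starts fibrils, was 0.245, 0.26, 0.241, 0.294 and 0.294 in SB415286 ears, against 0.61, 0.438, 0.454, 0.504 and 0.324 in control ears. Every SB415286 library, library 7 included, lay below every control. The matching log2 fold changes were -0.98 ± 0.39 for Col5a1 and -0.17 ± 0.30 for Col5a2. In the ACD model this ratio was 0.382 to 0.478 with SB415286 and 0.366 to 0.538 in controls, with overlap. Col6a1 over Col6a2 was 0.878, 0.837, 0.905, 0.837 and 0.855 in ACD SB415286 ears, against 0.917, 0.97, 0.98, 0.949 and 0.93 in ACD control ears, without overlap, while in the AD model it was 0.972 to 1.59 with SB415286 and 0.99 to 1.24 in controls, with overlap. Col1a1 over Col1a2, the chains of type I collagen, overlapped in every comparison: 0.529 to 1.07 in AD SB415286 ears and 0.748 to 1.25 in AD control ears, and 0.917 to 1.17 in ACD SB415286 ears and 0.884 to 1.05 in ACD control ears.

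**Figure D5:**
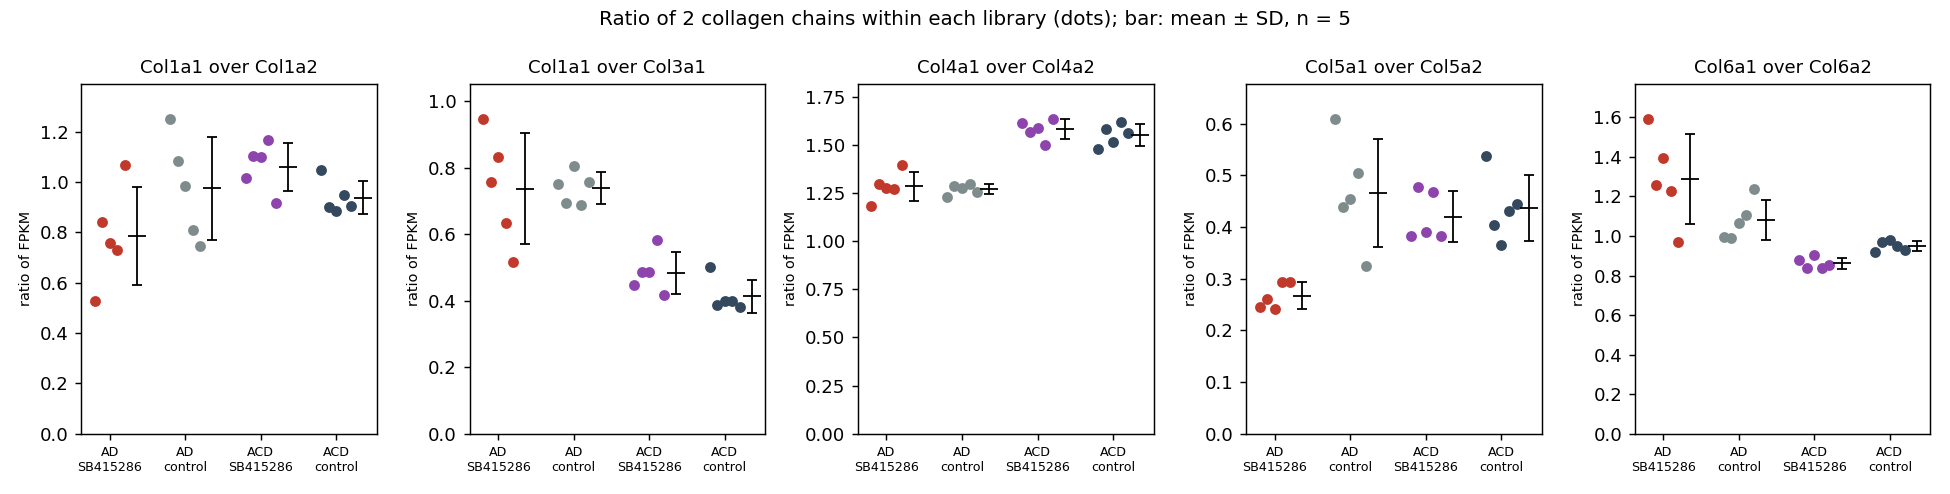
Ratio of the FPKM of 2 collagen chains (y axis, from 0) within each library (dots) in the 4 groups (x axis), with mean and SD of 5. Col4a1 over Col4a2 separates the ACD libraries (1.48 to 1.64) from the AD libraries (1.18 to 1.39), and Col5a1 over Col5a2 is 0.241 to 0.294 in AD SB415286 ears, below all 15 other libraries.

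Several collagen genes lie next to each other in the reference (GRCm38). Col4a1 and Col4a2 on chromosome 8 run head to head with annotated spans that overlap by 85 bases, and their SB415286 log2 fold changes were 0.39 ± 0.26 and 0.35 ± 0.23 in AD. Col4a4 and Col4a3 on chromosome 1 overlap by 114 bases; against AD controls, ACD controls were -1.37 ± 0.29 for Col4a4 and -0.32 ± 0.30 for Col4a3. Col4a6 and Col4a5 on chromosome X start 1274 bases apart and were -1.71 ± 0.37 and -1.18 ± 0.24. Whether the counting used strand is not given in the sources used here, so reads in the overlaps could be split between the partners. Col3a1 and Col5a2 on chromosome 1 end 24624 bases apart.

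The 250 bases before the RefSeq start of Col7a1, whose RNA passed in the AD model, are printed with those of Col3a1, the member with the highest mean FPKM in each group (GRCm38.p6, 5′ to 3′ on the gene's strand). Capitals mark the CCAAT box letters (CCAAT), the TATA box letters (TATAAA) and the GC box letters (GGGCGG), each on either strand; none overlaps another here.
Col7a1 promoter (chr9:108953336-108953585, plus strand): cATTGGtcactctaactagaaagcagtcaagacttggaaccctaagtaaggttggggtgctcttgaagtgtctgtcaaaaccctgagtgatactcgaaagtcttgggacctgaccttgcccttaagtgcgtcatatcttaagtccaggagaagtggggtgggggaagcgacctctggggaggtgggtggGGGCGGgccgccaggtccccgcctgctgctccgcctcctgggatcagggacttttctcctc
Col3a1 promoter (chr1:45311288-45311537, plus strand): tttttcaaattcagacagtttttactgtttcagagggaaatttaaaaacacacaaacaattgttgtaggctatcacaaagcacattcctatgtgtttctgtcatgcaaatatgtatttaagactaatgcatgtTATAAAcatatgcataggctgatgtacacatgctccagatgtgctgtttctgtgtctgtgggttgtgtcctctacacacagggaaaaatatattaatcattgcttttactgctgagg
Such windows were at hand for 31 of the 38 genes (33 windows). CCAAT was in 36.4% of them, against 33.8% of all 32851 windows, TATAAA in 9.1%, against 12.4%, and GGGCGG in 60.6%, against 32.7%. These are matches of letters and say nothing of what binds there.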

How the data were processed

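RNA from mouse ears was selected with oligo(dT) beads and sequenced on an MGISEQ-2000, per the labels' protocols. The authors deposited, for each model, a table of expected counts and FPKM values per gene. The submitters' processing notes name HISAT, HISAT2, Bowtie2 2.2.5 and RSEM 1.2.8, with builds GRCm38.p6 and GRCh38.p13, but no roles; whether strand was used is not given in the sources used here. The deposited FPKM values were scaled per model, and 38 columns of the tables were not used.

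Expected counts (18165446 to 20862353 per library) were rounded and tested in R 4.3.3 with edgeR 4.0.16 (quasi-likelihood, TMM scaling, low-count filter by group with a minimum count of 10, Benjamini-Hochberg adjustment over all genes tested, threshold 0.05). Each model was fitted alone; the control comparison and the difference between models used 1 fit of all 20 libraries over the 18835 shared genes. DESeq2 1.42.0, limma 3.58.1 on log2(FPKM + 1) and log2(FPKM + 0.1), other scalings, no filter, the library number as a block and left-out libraries were alternatives. Shares of all genes by DESeq2 are over every gene entered, without the low-count filter, so their base is wider than that of the edgeR shares. The edgeR fits were tested on simulated data. Full statistics were given to collagen genes past the threshold (up to 8) or the 4 with the smallest p, and to 1 or 2 fixed genes per main class; for other lists, up to 4 genes past the threshold or the 2 with the smallest p in the AD model, and counts elsewhere. A few further genes were named after their values were seen. Members, lists and the left-out libraries were chosen with earlier results of these data known. Annotation was GENCODE and RefSeq on GRCm38. One marker list was tested but is not reported here.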

Additional observations from a re-analysis of the deposited data

Results flagged for a closer look

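In 9 of the 172 groups of 5 values examined (each collagen gene in CPM and each chain ratio in each group), 1 library lay far from the other 4: its gap to the nearest, divided by the whole range, was above 0.71. Chance gives about 1 in 20 such groups. In AD SB415286 ears, library 7 was high for Col27a1 (72.2 against 7.07 to 22.2 CPM, gap ratio 0.768). In AD control ears, library 6 was high for Col17a1 (1147 CPM against 641 to 773 in the others, 0.74) and for Col20a1 (12.2 against 7.84 to 9.06 CPM, 0.72). Library 2 was high for Col24a1 (1.77 against 1.03 to 1.21 CPM, 0.751). Library 1 was high for Col6a5 (6.68 against 0.194 to 1.09 CPM, 0.862) and for Col6a6 (4.55 against 0.582 to 1.09 CPM, 0.872). In ACD SB415286 ears, library 4 was high for Col27a1 (50.5 against 32.7 to 36 CPM, 0.815) and library 3 for Col6a6 (0.496 against 0.054 to 0.155 CPM, 0.772). In ACD control ears, library 1 was high for the ratio of Col1a1 over Col3a1 (0.503 against 0.382 to 0.399). Its gap ratio was 0.839 on the log2 scale, which was used for the chain ratios.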

How the results depend on the processing

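In the AD model 1 collagen gene passed by edgeR (1.23%). Percentages in brackets here are the share of all genes that passed in the same fit. The count was 7 by DESeq2 (6.42%), 0 with no filter (0.25%) and 0 with the library number as a replicate block (0%). It was 2 by limma on log2(FPKM + 1) (1.76%), 2 on log2(FPKM + 0.1) (1.78%) and 18 without SB415286 library 7 and control library 6 together (25.7%). Leaving out 1 library gave 0 to 9 (0 to 9.3%). For the difference between models, 0 passed by edgeR (0.051%), 1 by DESeq2 (0.865%) and 11 without those AD libraries (13.4%). Leaving out 1 library gave 0 to 2 (0.00631 to 1.97%). In the ACD model 0 passed under every alternative run (0.0066 to 2.02%). Between the controls 15 passed (61.6%), and 13 to 17 under the alternatives (53.0 to 61.6%). No called value changed sign. The limma fits were not run between the controls, whose FPKM were scaled separately. Library numbers did not pair the samples: same-numbered deviations correlated at -0.25, -0.26 and 0.29 in AD and -0.19, -0.03 and 0.22 in ACD. With the block Col7a1 had an edgeR adjusted p of 0.255 in AD and Col3a1 one of 0.0605 between controls. The block gave 0 calls in ACD (0.0066%), 14 between controls (58.0%) and 0 for the difference (0.0127%). Low counts limit Col19a1, Col6a4, Col6a5 and Col6a6. The cause of these changes was not tested.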
